A study of Mus musculus with 10 samples.

Results

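The genes described here encode proteins of the fibrous sheath and the outer dense fibres of the sperm tail, or proteins that bind them: Akap3, Akap4, Fsip1, Fsip2, Ropn1, Ropn1l, Spa17, Odf1 and Odf2. They were chosen by symbol, and all 9 were found among the 32285 genes listed in both single-cell samples. The data set holds 10 samples of mouse testis. Single-cell RNA was counted in 2 suspensions of whole testis from conditional knockout mice, named cKO here, whose genotype is Smarca5 fl/delta; Ddx4-Cre+. Each of the other 8 samples is an ATAC-seq library, a map of open chromatin, from 50000 sorted cells. These were cells sorted on 4C DNA content from cKO mice (2 libraries) and from wild type C57BL6 mice (WT, 2 libraries), and cKIT+ cells from cKO mice (2 libraries) and from WT mice (2 libraries). The floxed allele is deleted by a Cre driven from the germ cell gene Ddx4, the cKO animals carry a delta allele beside it, and no allele or Cre is labelled for the WT animals. The 4C gate is labelled as taking pachytene or pachytene-like cells. The labels of the libraries named cKIT+ here carry the texts of both sorts, so comparisons between sorts rest on this naming. Only the 4C libraries have titles that name pachytene cells (pachy). The labels give no ages and do not state that replicates are separate animals, so that p-values measure the spread between these samples only. SMARCA5 is the motor subunit of the ISWI chromatin remodelers. Since both single-cell samples were cKO, the RNA of these genes could not be compared between genotypes, and genotypes were compared in the ATAC libraries alone.

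The sperm tail is built around a microtubule axoneme, which is wrapped by outer dense fibres along the midpiece and principal piece and by the fibrous sheath along the principal piece. The sheath is a scaffold on which A-kinase anchor proteins hold protein kinase A and glycolytic enzymes close to the axoneme. Its proteins are made late in sperm development, in spermatids, from genes that are transcribed before the nucleus is compacted by protamines.

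Stages were set cell by cell from the UMIs (unique molecular identifiers, 1 per captured RNA molecule) of marker genes that include none of these 9 genes. After filters, 7413 and 12933 cells were kept in replicates 1 and 2, with a median of 3678 and 4333 UMIs, and 32 cell barcodes occurred in both samples. Spermatogonium-like cells (Sg) numbered 255 and 381, leptotene- and zygotene-like spermatocytes (LZ) 644 and 1406, pachytene-like spermatocytes (P) 965 and 1709, and late-pachytene-like to dividing spermatocytes (LP-D) 772 and 1424. Spermatid-like cells were split by the share of their UMIs from 4 protamine and transition protein genes into round (RS, under 1%; 721 and 1277 cells), intermediate (IS, 1% to 10%; 699 and 1016 cells) and protamine-high spermatids (PH, 10% or more; 758 and 1458 cells). Of the 2178 and 3751 spermatid-like cells, 68 and 101 had shares between 0.8% and 1.2%, and 283 and 464 had shares between 8% and 12%, so neighbouring classes are ranges that meet. No class was given to 20.4% and 15.3% of the cells. The markers of each germ class summed highest in that class, which assignment by the same markers makes likely beforehand. Even so, the pachytene list differed little between P cells (2334 and 2183 CPM) and LP-D cells (2222 and 2143 CPM). Levels are given as CPM, the UMIs of a gene per 1e6 UMIs of the class in a sample.

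Droplets also capture free RNA, so each level is set beside that of Leydig-like cells (619 and 1405 cells), somatic cells that build no sperm tail. Protamine and transition protein UMIs, which mark late spermatids, stood at 1933 and 1335 CPM in Leydig-like cells, 1725 and 1340 CPM in Sg cells, 1925 and 1673 CPM in LZ cells, and 963 and 608 CPM in P cells. The droplets of replicate 1 with 10 to 100 UMIs, which hold free RNA, had 148 CPM of Akap3, 267 CPM of Akap4, 217 CPM of Odf1 and 728 CPM of Ropn1, above every class of that sample up to LP-D. Akap4 in RS cells (206 CPM) and Odf1 in RS and IS cells (130.4 and 198 CPM) of that sample were also below the free RNA level. Free RNA of Fsip1 (121 CPM), Odf2 (1077 CPM) and Spa17 (1632.5 CPM) was likewise above every class up to LP-D. That of Fsip2 (379 CPM) was above every class but P and RS, and that of Ropn1l (2491 CPM) above Sg and LZ cells only. Leydig-like cells held 21226 and 30588 CPM of Leydig markers and 4375 and 4701 CPM of Sertoli markers.

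Akap3, Akap4, Ropn1 and Odf1 rose late. Up to LP-D cells they stood at 5.32 to 75.2 CPM, a range like the 6.51 to 55.7 CPM of Leydig-like cells, and all 4 rose in round spermatids and again in both later classes. AKAP3 and AKAP4 are the anchoring proteins that make up most of the fibrous sheath, ropporin (Ropn1) binds AKAP3 in the sheath through a domain like that of a protein kinase A subunit, and ODF1 is a major protein of the outer dense fibres. Akap4 had 26.2, 27.1, 13.0, 16.1, 206, 548 and 944 CPM in the Sg, LZ, P, LP-D, RS, IS and PH cells of replicate 1. In replicate 2 it had 14.6, 24.2, 6.63, 5.81, 168, 505 and 919.9 CPM. Both samples gave the same course, with the last class highest and 5.81 to 27.1 CPM before round spermatids, beside 25.9 and 14.6 CPM in Leydig-like cells.

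Ropn1 had 71.4, 63.0, 27.8, 62.6, 1119, 2087 and 2452 CPM over the same classes of replicate 1. In replicate 2 it had 75.2, 68.5, 23.5, 54.5, 1378, 2657 and 3086 CPM, against 55.7 and 51.1 CPM in Leydig-like cells of replicates 1 and 2. Its level in round spermatids stood above every earlier class of both samples. Akap3 had 18.9, 14.1, 9.84, 26.5, 211, 325 and 429.8 CPM in replicate 1 and 17.0, 15.2, 5.32, 16.0, 154, 262 and 304 CPM in replicate 2, against 14.1 and 6.51 CPM in Leydig-like cells. Odf1 had 27.7, 18.4, 8.45, 16.7, 130.4, 198 and 274 CPM in replicate 1 and 17.8, 18.5, 5.97, 12.7, 119, 201 and 269 CPM in replicate 2, against 16.9 and 8.83 CPM in Leydig-like cells. For each of the 4 genes the classes from RS on and the classes up to LP-D did not overlap in either sample. The share of all genes with such a separation was not counted.

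**Figure D1:**
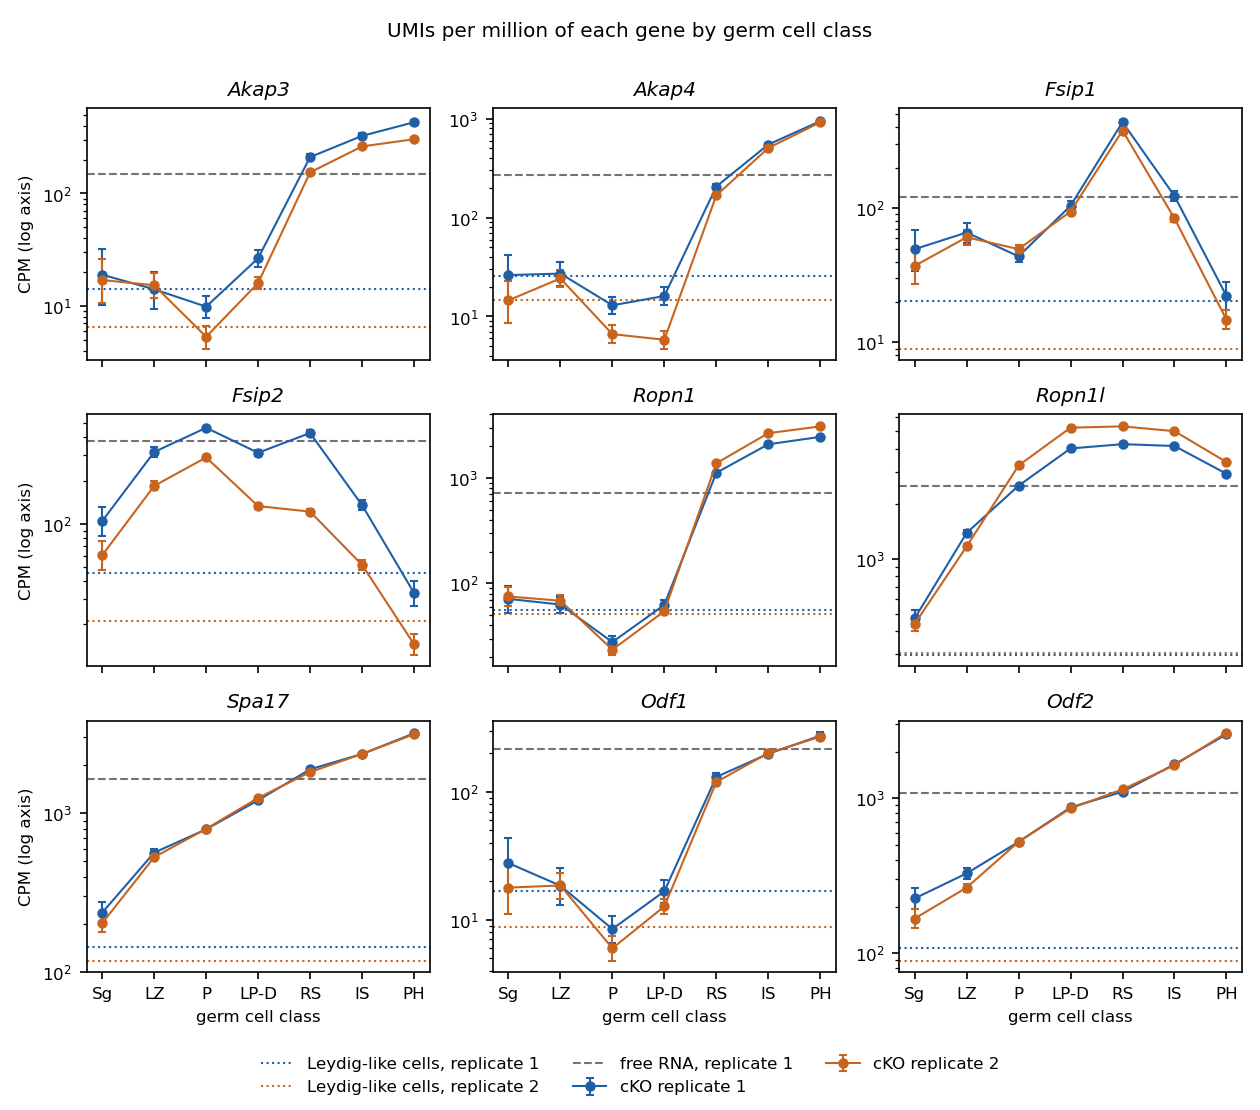
CPM of each gene (vertical, log axis) in the 7 germ cell classes (horizontal, early to late) of the 2 cKO samples, with bars for exact Poisson 95% intervals, which cover counting error only. Dotted lines give the level in Leydig-like cells and the dashed line that of free RNA in replicate 1; Akap3, Akap4, Ropn1 and Odf1 stay near the dotted lines up to LP-D, while Odf2 and Spa17 climb through all classes and Fsip1 and Fsip2 end near the dotted lines.

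The start regions of Akap3 and Akap4 are shown because these 2 anchor genes, on chromosomes 6 and X, rose together and share a run of letters there. The windows are RefSeq promoter sequences of build GRCm38.p6 (mm10) that run from 250 bases before to 50 bases after an annotated start, chr6:126852848-126853147 and chrX:7067265-7067564, both on the plus strand and written 5′ to 3′. Capitals mark the run of 20 letters that both hold, from position -34 to -15 relative to the start in Akap3 and from -47 to -28 in Akap4.
Akap3: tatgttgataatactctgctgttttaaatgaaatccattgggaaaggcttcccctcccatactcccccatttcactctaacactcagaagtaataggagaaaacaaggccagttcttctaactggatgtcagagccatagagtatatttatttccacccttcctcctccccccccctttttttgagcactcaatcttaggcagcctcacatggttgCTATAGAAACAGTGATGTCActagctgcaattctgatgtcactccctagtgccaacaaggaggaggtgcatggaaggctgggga
Akap4: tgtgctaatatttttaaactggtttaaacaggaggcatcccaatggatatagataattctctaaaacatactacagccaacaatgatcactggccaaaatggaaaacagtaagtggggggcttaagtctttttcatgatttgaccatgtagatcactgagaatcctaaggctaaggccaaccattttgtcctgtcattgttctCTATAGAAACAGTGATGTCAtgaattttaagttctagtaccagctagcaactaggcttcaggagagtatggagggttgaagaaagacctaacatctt
Among the 27025 genes with a window, 2 held this run on either strand, Akap3 and Akap4 themselves. It was the longest run shared by any of the 21 pairs of windows of these genes; the next longest had 12 letters (Odf2 and Ropn1). The match was found by searching these windows and is a description of their letters, with no site or factor shown by it.

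Windows were found for 7 of the 9 genes, and they differed in CpG content. The window of Akap3 and that of Akap4 held 0 CpG pairs and that of Ropn1 held 2, while those of Fsip2, Ropn1l, Spa17 and Odf2 held 14, 22, 24 and 26. The median over all windows was 7 (quartiles 3 and 21). The window of Ropn1, chr16:34650961-34651260 on the plus strand, is shown because Ropn1 changed most at the round spermatid step and an ATAC peak crossed it in 1 library only.
Ropn1: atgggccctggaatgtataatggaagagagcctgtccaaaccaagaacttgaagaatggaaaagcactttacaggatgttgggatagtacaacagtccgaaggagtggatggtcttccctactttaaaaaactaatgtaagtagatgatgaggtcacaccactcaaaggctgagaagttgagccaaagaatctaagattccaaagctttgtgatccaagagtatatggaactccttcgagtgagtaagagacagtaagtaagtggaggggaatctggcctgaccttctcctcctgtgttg
The motifs searched, on both strands, were TGACGTCA (the cyclic AMP response element), TGACG (the shorter form, which lies within it), GTTGCC (part of the X-box bound by RFX factors), CCAAT and TATAAA. Of all windows, 1.88% held TGACGTCA, 21.0% held TGACG, 12.7% held GTTGCC, 37.9% held CCAAT and 14.2% held TATAAA. None of the 7 windows held TGACGTCA or TATAAA, and those of Ropn1 and Spa17 held none of the 5 motifs. For genes with several windows, Akap4, Odf2 and Spa17 among them, the first one listed was used.

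Odf2 and Spa17 rose at every step, from spermatogonia to protamine-high spermatids. ODF2 is an outer dense fibre protein that is also part of centrioles in other cells, and SPA17 is a sperm protein with a docking domain like that of a protein kinase A subunit. Odf2 had 226, 328, 523, 873, 1101, 1655 and 2581 CPM in the 7 classes of replicate 1 and 167, 265, 524, 859.7, 1141, 1633 and 2641 CPM in those of replicate 2. Spa17 had 237, 566, 793, 1208, 1891, 2362 and 3182 CPM in replicate 1 and 204, 530.2, 799, 1249, 1817, 2363 and 3143 CPM in replicate 2. Each class was higher than the one before it in both samples and both genes. With the edgeR test of each step, the call of Odf2 in RS over LP-D cells was lost with Leiden clusters (0.32, adjusted p = 0.11) and that of Spa17 in IS over RS cells with doublets kept (0.39, adjusted p = 0.080). Leydig-like cells had 108 and 89.1 CPM of Odf2 and 144 and 118 CPM of Spa17. For both genes the free RNA of replicate 1 stood above its classes up to LP-D.

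In CPM, Ropn1l rose early, stood highest from LP-D to IS cells and was lower again in PH cells. It encodes a ropporin-like protein of the sheath and the axonemal radial spokes. It had 471, 1384, 2513, 4018, 4243, 4147 and 2921 CPM in the 7 classes of replicate 1 and 439, 1167, 3242, 5225, 5312, 5001 and 3387 CPM in those of replicate 2, against 297 and 303 CPM in Leydig-like cells. LP-D, RS and IS cells were the 3 highest classes in both samples, and PH cells lay below them in both. In the edgeR tests given below, the step from IS to PH cells was not called. Its log2 fold change turned from negative to 0.044 with DESeq2 and to 0.15 with doublets kept or Leiden clusters.

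Fsip1 and Fsip2, which encode fibrous sheath interacting proteins, peaked and then fell. Fsip1 had 49.5, 65.9, 43.8, 104, 438, 124 and 22.2 CPM in replicate 1 and 37.2, 60.7, 49.6, 94.5, 379, 84.1 and 14.8 CPM in replicate 2. Round spermatids were its highest class in both, and protamine-high spermatids were close to the 20.3 and 8.99 CPM of Leydig-like cells. Fsip2 had 105, 317, 466, 313, 429, 135 and 33.2 CPM in replicate 1 and 60.7, 184, 289.9, 133, 122, 52.0 and 14.6 CPM in replicate 2, against 45.6 and 21.1 CPM in Leydig-like cells. Pachytene-like cells were the highest class in both samples, but round spermatids came next in replicate 1 and lay below LP-D cells in replicate 2.

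Each class was then tested against the one before it with the edgeR quasi-likelihood test on summed UMIs, with the sample as a block and p-values adjusted over all 18852 genes tested. Fold changes are on the log2 scale after TMM scaling, which sets each step 0.08 to 0.44 higher than the ratio of CPM; the largest of these offsets were 0.44 for LZ over Sg and 0.42 for PH over IS. In LZ over Sg cells 5 of the 9 genes rose (22.5% of all genes tested) and 0 fell (14.9% of all genes). Those that rose were Fsip2 by 2.04 ± 0.23 (SE, 2 samples, adjusted p = 2.6e-09), Ropn1l by 1.94 ± 0.21, Spa17 by 1.76 ± 0.20, Odf2 by 1.04 ± 0.21 and Fsip1 by 1.01 ± 0.25. Under DESeq2 size factors the split over all genes turned to 2999 higher and 3756 lower, against 4235 and 2810 with TMM, with the same count of 5 among these genes. Akap4 did not pass the test (0.85 ± 0.37, adjusted p = 0.064), but it did with no filter on low counts, doublets kept, 500 UMIs as the minimum or a stricter margin (0.92 to 1.11, adjusted p = 0.016 to 0.034).

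In P over LZ cells 4 genes rose (23.2% of all genes) and 4 fell (23.4% of all genes). Ropn1l rose by 1.40 ± 0.20 (adjusted p = 2.0e-07), Odf2 by 1.08 ± 0.20, Fsip2 by 0.86 ± 0.20 and Spa17 by 0.80 ± 0.19. The genes that fell were the late-rising Akap4 (-1.20 ± 0.28), Odf1 (-1.13 ± 0.26), Ropn1 (-1.09 ± 0.22) and Akap3 (-0.79 ± 0.27, adjusted p = 0.015; not passed at 2000 UMIs, -0.37 with adjusted p = 0.31, or with a stricter margin, -0.55 with adjusted p = 0.14), all at levels near those of Leydig-like cells. The protamine and transition protein UMIs given above were also lower in P than in LZ cells, and the part of free RNA in these falls was not tested.

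In LP-D over P cells 7 genes rose (22.7% of all genes) and 1 fell (29.4% of all genes). The largest rises were those of Akap3 (1.56 ± 0.23, adjusted p = 3.8e-07), Ropn1 (1.25 ± 0.21) and Fsip1 (1.17 ± 0.19), and Odf1, Odf2, Ropn1l and Spa17 rose by 0.70 to 1.10. In LP-D cells Ropn1 (62.6 and 54.5 CPM) was still near its level in Leydig-like cells (55.7 and 51.1 CPM). Odf1 had 16.7 and 12.7 CPM, beside 16.9 and 8.83 CPM, and Akap3 26.5 and 16.0 CPM, beside 14.1 and 6.51 CPM. Protamine and transition protein UMIs stood at 1023 and 466 CPM in LP-D cells, beside 963 and 608 CPM in P cells. The part of free RNA in these rises was not tested. Akap4 differed by 0.12 ± 0.28 (adjusted p = 0.75). Fsip2 fell by 0.78 on the log2 scale (SE 0.20, adjusted p = 0.00098), a call that was lost under DESeq2 size factors (-0.42, adjusted p = 0.078). That scaling moved the median of all genes to 0.26, against -0.09 with TMM, and the split to 6101 higher and 4026 lower genes, against 4287 and 5539.

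In RS over LP-D cells 7 genes rose (32.5% of all genes) and 0 fell (29.5% of all genes). Ropn1 rose by 4.57 ± 0.23 (adjusted p = 1.4e-20), Akap4 by 4.41 ± 0.27, Akap3 by 3.29 ± 0.22, Odf1 by 3.26 ± 0.22 and Fsip1 by 2.19 ± 0.19. Spa17 rose by 0.74 ± 0.19 and Odf2 by 0.53 ± 0.19 (adjusted p = 0.015). Ropn1l (0.20 ± 0.20) and Fsip2 (0.35 ± 0.20) did not pass the test. The median of the 9 genes was 2.19, beside -0.09 over all genes tested.

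In IS over RS cells 6 genes rose (21.7% of all genes) and 2 fell (17.2% of all genes). Akap4 rose by 1.78 ± 0.23, Ropn1 by 1.20 ± 0.20, Akap3 by 0.97 ± 0.20 and Odf1 by 0.95 ± 0.20, and Odf2 and Spa17 by 0.82 and 0.62. Fsip1 fell by 1.73 on the log2 scale (SE 0.19, adjusted p = 5.4e-10) and Fsip2 by 1.21 (SE 0.20), although with Leiden clusters in place of single-cell stages Fsip2 stood at -0.05 (adjusted p = 0.86). In PH over IS cells the same 6 genes rose, by 0.65 (Ropn1) to 1.26 (Akap4), and the same 2 fell, Fsip1 by 2.08 and Fsip2 by 1.51, beside 11.1% of all genes higher and 14.2% lower. Under DESeq2 size factors 2883 genes were higher and 2193 lower at this step, against 2093 and 2685 with TMM. Ropn1l did not pass the test at either step, with -0.11 ± 0.20 in PH over IS cells on the TMM scale.

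**Figure D2:**
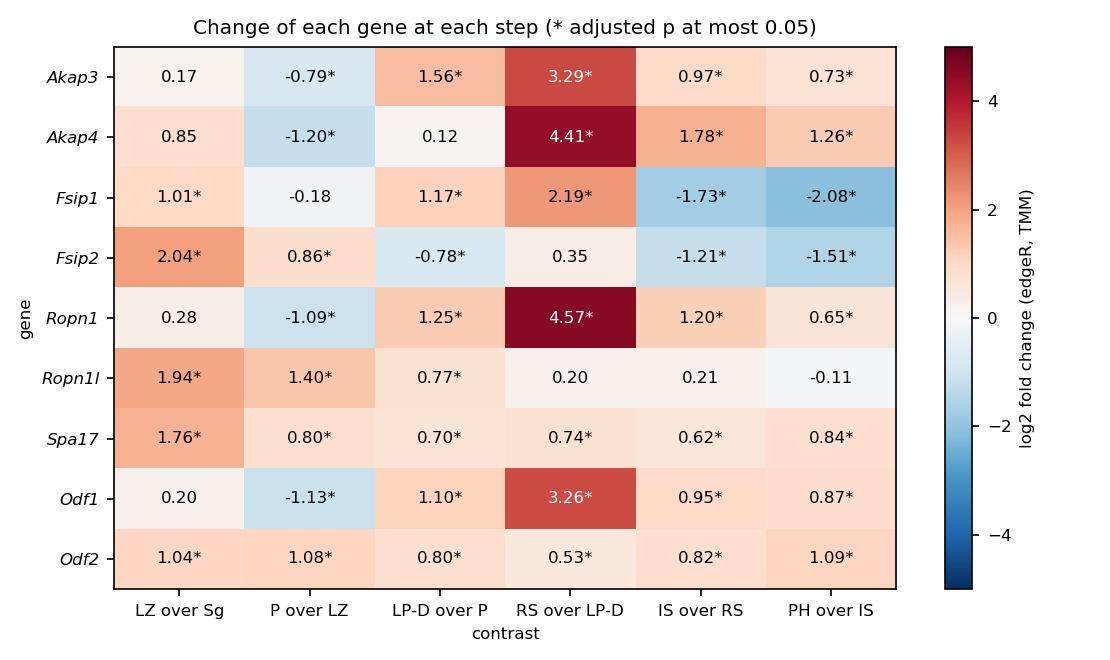
Log2 fold change of each gene (rows) at each step between neighbouring classes (columns), later class over earlier class, from the edgeR test on summed UMIs of the 2 cKO samples; an asterisk marks an adjusted p of at most 0.05. The column of RS over LP-D holds the highest values, 4.57 for Ropn1 and 4.41 for Akap4, and the rows of Fsip1 and Fsip2 turn negative in the last 2 columns.

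Over the mean of the 3 spermatid classes against the mean of the 3 spermatocyte classes, 8 of the 9 genes rose (41.9% of all genes) and 1 fell (41.5% of all genes). Ropn1 rose by 6.05 ± 0.14, Akap4 by 5.70 ± 0.16, Akap3 by 4.95 ± 0.14 and Odf1 by 4.54 ± 0.14. Odf2, Spa17, Ropn1l and Fsip1 rose by 1.06 to 2.33, and Fsip2 fell by 1.19 on the log2 scale (SE 0.12). Within each sample the 8 rises and the 1 fall had the same sign, with Ropn1 at 5.74 in replicate 1 and 6.43 in replicate 2.

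Cells were thinned to 1000 UMIs each, so that shares of cells with a UMI could be set side by side across depths. Akap4 was seen in 2.85% and 0.983% of thinned LP-D cells of replicates 1 and 2, 16.0% and 14.4% of RS cells, 39.9% and 40.8% of IS cells and 63.5% and 63.8% of PH cells. Unthinned, the shares were 10.2% and 6.18% of LP-D cells, 53.5% and 61.9% of RS cells, 80.7% and 87.8% of IS cells and 89.6% and 93.2% of PH cells. In Leydig-like cells the share was 3.23% and 1.71% (6.95% and 5.12% unthinned), at a median of 2455 and 4060 UMIs before thinning, beside 3074 and 4294.5 UMIs in PH cells and 5135.5 and 8331.5 UMIs in LP-D cells. After thinning, the Akap4 share of LP-D cells was thus below that of Leydig-like cells in both samples. Leydig-like cells also held more protamine and transition protein UMIs (1933 and 1335 CPM) than LP-D cells (1023 and 466 CPM). Their share is therefore not a measured background of LP-D cells. Ropn1 was seen in 59.4% and 66.0% of thinned RS cells (88.9% and 94.4% unthinned), against 8.03% and 6.25% of LP-D cells (26.0% and 30.4% unthinned) and 4.68% and 5.62% of Leydig-like cells (13.2% and 17.6% unthinned). Ropn1l was seen in 75.3% and 72.7% of thinned PH cells (88.4% and 88.6% unthinned), against 95.1% and 93.8% of LP-D cells (96.8% and 96.6% unthinned) and 21.5% and 20.6% of Leydig-like cells (39.7% and 56.3% unthinned).

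**Figure D3:**
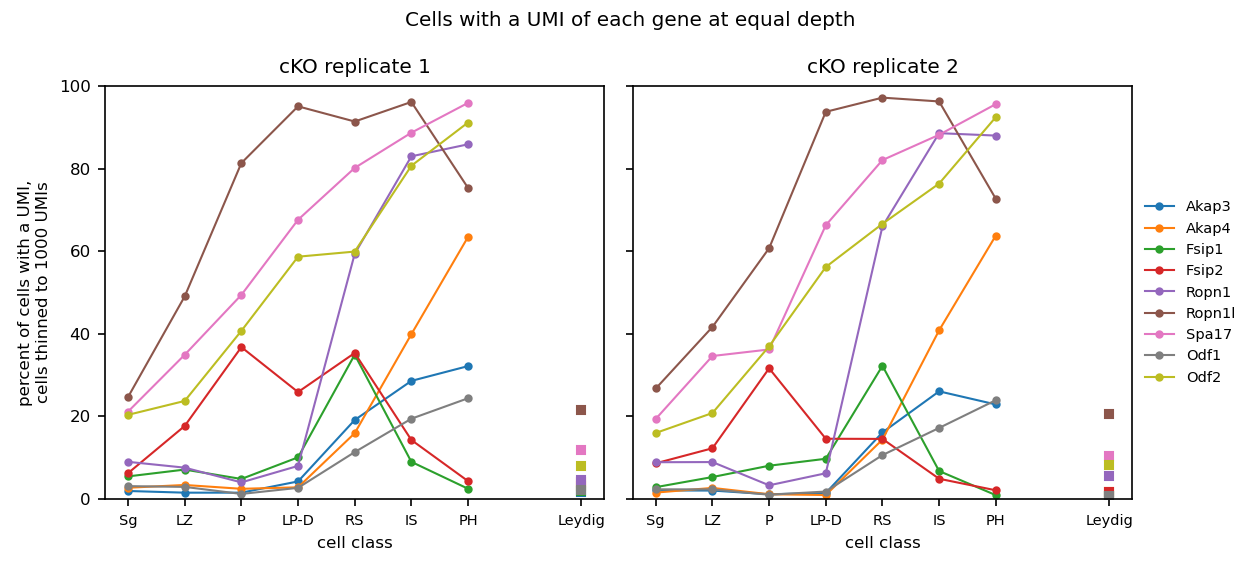
Percent of cells with at least 1 UMI of each gene (vertical) after thinning every cell to 1000 UMIs, in the 7 germ cell classes and, as squares, in Leydig-like cells (horizontal), for the 2 cKO samples (panels). Ropn1 and Akap4 leave the level of the squares between LP-D and RS cells, Fsip1 is highest in RS cells, and Ropn1l is above 90% in LP-D, RS and IS cells.

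Other somatic classes carried more of these UMIs than Leydig-like cells. Sertoli-like cells (262 and 490 cells) had 282 and 369.9 CPM of Ropn1 and 663 and 621 CPM of Odf2, and macrophage-like cells (138 and 237 cells) had 229 and 212 CPM of Ropn1. Protamine and transition protein UMIs were also higher there, at 11603 and 14610.0 CPM in Sertoli-like cells and 7260.0 and 5589 CPM in macrophage-like cells. The part of captured spermatid RNA in these levels was not tested.

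Genes with the course most like each of the 9 were found by Pearson's r of log2(CPM + 1) over 14 points, 7 classes in each of 2 samples, among 7328 genes with a mean of at least 20 CPM. The points share libraries and depth, and r is a description. Nearest to Akap3 were Clip4, Gm5941 and 1700010D01Rik (r = 0.997, 0.997 and 0.996), nearest to Akap4 were Spata3, 1700001K19Rik and 4933411K16Rik (0.997, 0.997 and 0.996), and nearest to Odf1 were Pkib, 2610318N02Rik and 1700010D01Rik (0.999, 0.997 and 0.995). Nearest to Ropn1 were AI507597, 1700019D03Rik and Cypt2 (0.999, 0.998 and 0.998). The course of Ropn1l was nearest to those of 1110032A03Rik, Oscp1 and Fam229b (0.991, 0.990 and 0.985), that of Odf2 to those of Thegl, Gm10638 and 1700110K17Rik (0.988, 0.982 and 0.981), and that of Spa17 to those of 1700074P13Rik, Stard6 and Spata24 (0.982, 0.982 and 0.981). Fsip1 was nearest to Uqcrfs1, Idi1 and Glipr1l3 (0.945, 0.930 and 0.926) and Fsip2 to Bbs7, 2210408I21Rik and Lrriq1 (0.968, 0.961 and 0.956). Among the 9 genes themselves, Akap3, Akap4, Odf1 and Ropn1 had r of 0.967 to 0.992 with each other, Odf2 and Spa17 had 0.982, and Fsip2 had -0.420 with Odf2 and -0.621 with Odf1.

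Other genes of the same structures were counted with the same test. Of 10 other fibrous sheath genes, 9 were higher and 1 lower in spermatids than in spermatocytes (41.9% and 41.5% of all genes), with a median of 3.69, beside -0.02 over all genes tested. The largest changes were those of Gapdhs (5.38 ± 0.15), the sperm form of a glycolytic enzyme, Aldoart1 (5.23 ± 0.18), a sperm aldolase, and Cabyr (4.69 ± 0.14), a calcium-binding protein of the sheath. Gapdhs had 36.6 and 22.3 CPM in LP-D cells, 390.3 and 433 CPM in RS cells, 907 and 839 CPM in IS cells and 1536 and 1396 CPM in PH cells. Counts higher and lower at the 6 steps, from LZ over Sg to PH over IS, were 4 and 0, 4 and 4, 7 and 0, 7 and 1, 1 and 3, and 5 and 2. Over all genes the shares higher and lower at these steps were 22.5% and 14.9%, 23.2% and 23.4%, 22.7% and 29.4%, 32.5% and 29.5%, 21.7% and 17.2%, and 11.1% and 14.2%, and the step counts of the next 3 lists stand beside the same shares.

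Of 14 other outer dense fibre genes and partners of ODF1 or ODF2, 12 were tested, and 9 were higher and 2 lower in spermatids (41.9% and 41.5% of all genes), with a median of 4.24. Odf3 (6.28 ± 0.17), Odf3b (5.88 ± 0.23) and Spag4 (5.56 ± 0.16) changed most. Odf3b had 1.42 and 2.43 CPM in RS cells, 64.3 and 92.6 CPM in IS cells and 171 and 204 CPM in PH cells, and so was still near 0 in round spermatids, where Odf1 had risen. Counts higher and lower at the 6 steps were 6 and 0, 2 and 4, 6 and 1, 7 and 2, 6 and 4, and 5 and 3.

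Of 8 protein kinase A subunits and ropporin partners, 3 were higher and 4 lower in spermatids than in spermatocytes, near the 41.9% and 41.5% of all genes, with a median of -0.28. Prkar2a, which encodes the regulatory subunit that docks on AKAPs, changed most (4.95 ± 0.16), followed by Prkar1b (3.41 ± 0.18) and the catalytic subunit gene Prkacb (-2.41 ± 0.21). Prkar2a had 13.2 and 9.49 CPM in RS cells, 153 and 139 CPM in IS cells and 359 and 349 CPM in PH cells. Counts higher and lower at the 6 steps were 0 and 3, 1 and 3, 2 and 1, 2 and 1, 2 and 2, and 1 and 2. Of 11 other A-kinase anchor genes, 5 were higher and 6 lower in spermatids, also near the 41.9% and 41.5% of all genes, with a median of -0.74. Akap1, a mitochondrial anchor, was higher (5.53 ± 0.17), and Akap5 (-3.37 ± 1.18) and Akap11 (-3.30 ± 0.17) were lower. Akap5 was near the floor, with at most 1.00 CPM in any spermatocyte class and 0 CPM in IS and PH cells. Counts higher and lower at the 6 steps were 0 and 3, 2 and 4, 1 and 6, 6 and 3, 3 and 2, and 2 and 2.

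Chromatin around the 9 genes was described from the peak lists. The lists held 54059 and 57788 peaks in 4C-sorted cKO cells, 55756 and 59417 in 4C-sorted WT cells, 127222 and 121802 in cKIT+ cKO cells, and 44697 and 112518 in cKIT+ WT cells, so that cKIT+ WT replicate 1 stands apart with a short list. The fold enrichment of a peak is the authors' own value relative to the signal around it in that library. The depth of the libraries is unknown, and in pooled sorted cells a peak in few cells and a weak peak in many cannot be told apart. In the mm10 gene annotation of RefSeq, each gene has a lower and an upper end by coordinate, and a peak within 1 kb was counted for each.

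Of the 18 gene ends, 5 had a peak in all 8 libraries, as did 16.2% of the 99886 ends of all annotated genes. They were an end of Odf2, Fsip1, Fsip2, Ropn1l and Spa17, the 5 genes whose RNA had risen in LZ over Sg cells. This match was not tested. Under 4 alternative settings Akap4 rose at that step too, and neither of its ends had a peak in all libraries. An end of Siae also lies at the Spa17 peak. For Odf2, Fsip2, Ropn1l and Spa17 the peak also crossed the RefSeq start window in all 8 libraries, as it did in 35.4% of all windows. The start windows of Akap3 and Akap4 met a peak in no library, as did 40.9% of all windows. The folds at the Fsip2 start (chromosome 2, 82943322 to 82944026) were 6.84 and 7.81 in 4C-sorted cKO, 7.64 and 6.74 in 4C-sorted WT, 3.91 and 3.81 in cKIT+ cKO, and 3.94 and 3.60 in cKIT+ WT cells. The 4C-sorted libraries were all higher than the cKIT+ ones, and the genotypes overlapped in 4C-sorted and in cKIT+ cells. How many of all gene ends show such a separation between sorts was not counted. At the Ropn1l start (chromosome 15, 31453111 to 31453921) the folds were 6.85 and 8.42, 7.13 and 7.60, 11.5 and 10.5, and 5.52 and 9.96 in the same order of groups, and an end of Gm49208 lies there too. At the lower end of Odf2 the cKIT+ libraries were all higher than the 4C-sorted ones, with folds of 4.79 to 6.02 against 4.21 to 4.60.

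The start windows of Fsip2 and Ropn1l are shown for contrast with those of Akap3, Akap4 and Ropn1, since both were crossed by peaks in all libraries. They lie at chr2:82943384-82943683 on the plus strand and chr15:31453640-31453939 on the minus strand, and capitals mark the motif matches, TGACG (read as CGTCA) and CCAAT in Fsip2 and GTTGCC in Ropn1l.
Fsip2: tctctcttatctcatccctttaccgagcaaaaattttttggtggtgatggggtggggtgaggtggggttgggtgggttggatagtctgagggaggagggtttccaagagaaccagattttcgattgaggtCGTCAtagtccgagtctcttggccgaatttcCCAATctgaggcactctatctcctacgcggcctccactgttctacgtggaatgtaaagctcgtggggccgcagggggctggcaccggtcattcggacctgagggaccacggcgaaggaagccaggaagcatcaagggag
Ropn1l: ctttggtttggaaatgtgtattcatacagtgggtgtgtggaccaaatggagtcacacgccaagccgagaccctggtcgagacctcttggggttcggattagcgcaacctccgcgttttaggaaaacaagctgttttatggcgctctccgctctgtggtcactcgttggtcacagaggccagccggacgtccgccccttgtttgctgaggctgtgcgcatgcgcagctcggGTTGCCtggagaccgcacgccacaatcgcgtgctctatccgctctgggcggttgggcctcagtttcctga
In Ropn1l the GTTGCC match lay 20 to 15 bases before the start. In Fsip2 the CGTCA match lay 120 to 116 bases and the CCAAT match 89 to 85 bases before it. CCAAT was not particular to Fsip2. The windows of Akap3 (read as ATTGG, position -214 to -210) and Akap4 (-211 to -207) also held it, without capitals above. The window of Odf2, which is not shown, held TGACG and CCAAT.

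The late-rising genes had other patterns. Odf1 (chromosome 15, 38219203 to 38226735) had a peak at its lower end in the 4 libraries of 4C-sorted cells, with folds of 3.61 and 4.01 in cKO and 3.44 and 3.60 in WT, and none in the 4 cKIT+ libraries, a pattern seen at 0.823% of all gene ends. Akap3 (chromosome 6, 126853098 to 126874308) had a peak past its upper end in the 4 cKIT+ libraries, with folds of 7.71 and 9.16 in cKO and 3.86 and 4.65 in WT, and none in the 4C-sorted ones, as did 0.763% of all ends. An end of Dyrk4 lies at that peak. A second peak near Akap3, at 126848572 to 126849679 in all 8 libraries, lies at an end of Ndufa9. Akap4 (chromosome X, 7067515 to 7078609) had a peak inside the gene in all 8 libraries (7070758 to 7072572), with folds of 3.34 to 3.64.

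**Figure D4:**
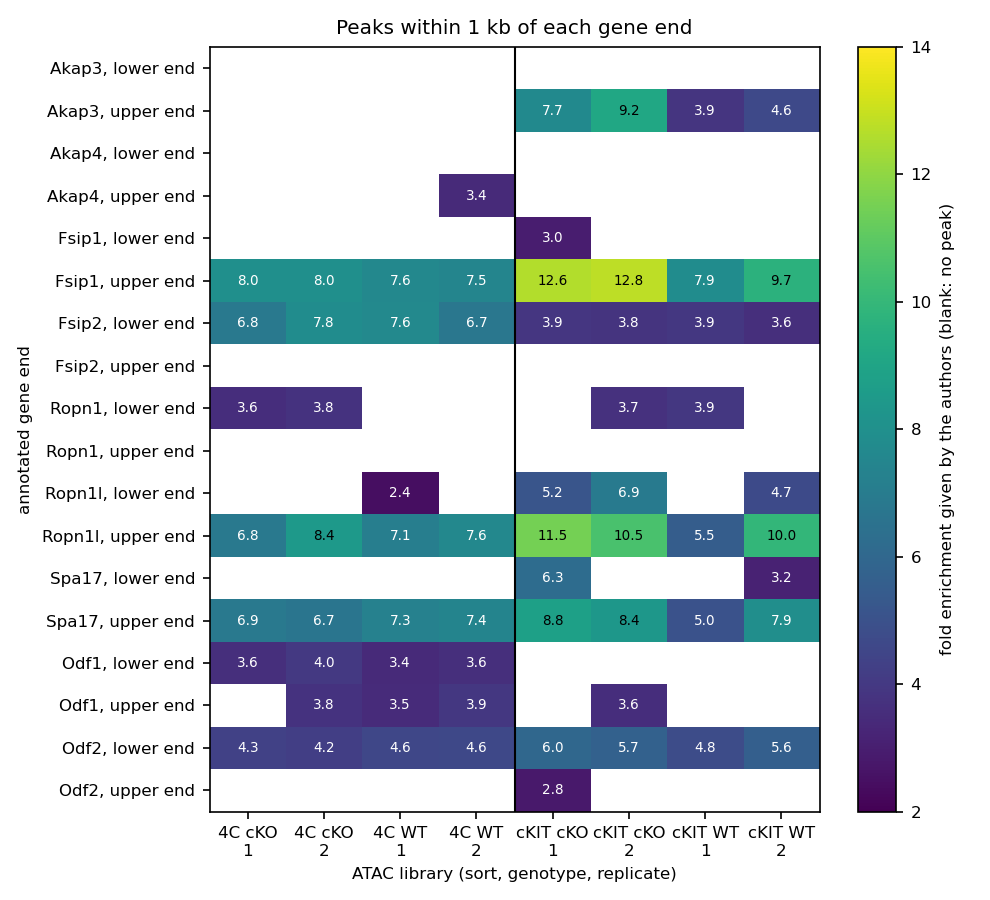
Fold enrichment given by the authors for the strongest peak within 1 kb of each annotated gene end (rows) in the 8 ATAC libraries (columns), blank where the library has no peak. Fsip1, Fsip2, Ropn1l, Spa17 and Odf2 have 1 end filled in all columns, the lower end of Odf1 is filled in the 4 columns of 4C-sorted cells, and the lower end of Ropn1 in 4C cKO 1, 4C cKO 2, cKIT cKO 2 and cKIT WT 1.

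At 1 gene end of 4C-sorted cells a peak was present in both libraries of one genotype and in neither of the other, that of Ropn1 (chromosome 16, 34649832 to 34678610), a gain that an earlier analysis of these data had named and that is described here. A peak lay at its lower end (34649727 to 34649958) with folds of 3.58 and 3.75 in 4C-sorted cKO cells, against no peak in either 4C-sorted WT library. With a reach of 2 kb from the end that pattern ended, since 4C-sorted WT replicate 1 had a peak (fold 3.06) from 1.36 kb inside the gene. A library with no called peak has no measured fold, so the size of the difference is not known, and 2 libraries against 2 cannot give an exact p below 0.333. In cKIT+ cells the same peak had a fold of 3.70 in cKO replicate 2 and 3.95 in WT replicate 1 and was missing in cKO replicate 1 and WT replicate 2, so that the genotypes overlapped. Of the 9 ends of these genes without a peak in either 4C-sorted WT library, 1 had a peak in both cKO libraries, beside 1.25% of 72341 such ends of all genes. None of the 7 ends with a peak in both WT libraries was without one in both cKO libraries, beside 3.50% of 21796 ends of all genes. In cKIT+ cells, 0 of 9 ends were gained in cKO (2.95% of all such ends) and 0 of 6 were lost (1.24%).

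The peaks at the end of Ropn1 were weak, with a -log10 q of 2.24 and 2.66 in 4C-sorted cKO cells, and none of them had a -log10 q of 5. The RefSeq start of Ropn1 shown above lies 1.38 kb inside this end, and its window was crossed by that peak of 4C-sorted WT replicate 1 only. A peak 16.8 to 17.8 kb inside the gene was present in all 8 libraries, with folds of 4.05 and 4.90 in 4C-sorted cKO, 4.55 and 4.48 in 4C-sorted WT, 7.22 and 6.57 in cKIT+ cKO, and 3.57 and 6.59 in cKIT+ WT cells. Another, 22.2 to 22.4 kb inside, was present in the 4 cKIT+ libraries and in none of the 4C-sorted ones.

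**Figure D5:**
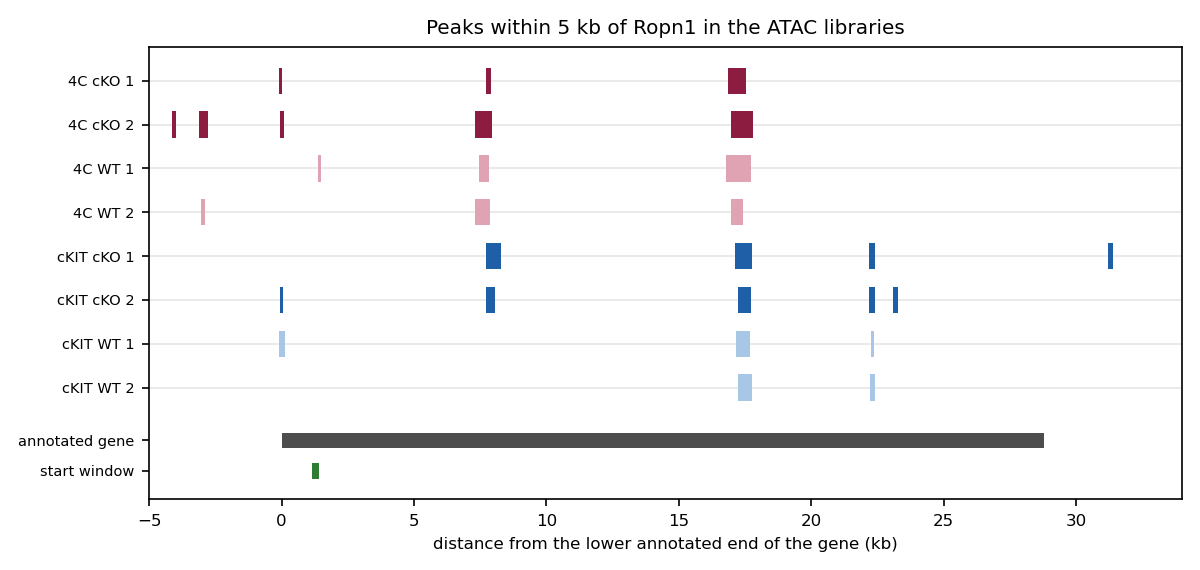
Peaks within 5 kb of Ropn1 in the 8 ATAC libraries (rows), drawn to scale by distance from the lower annotated end of the gene (horizontal, kb), with the annotated gene (dark grey) and the RefSeq start window (green). The peak at 0 kb is present in both 4C cKO rows and absent from both 4C WT rows. It is also present in the rows of cKIT cKO 2 and cKIT WT 1, and the peak near 17 kb is present in all rows.

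Counts of peaks within 5 kb of the whole gene gave few differences between genotypes. In 4C-sorted cells, Ropn1l had 2 and 2 peaks in cKO, against 4 and 3 in WT, the only gene of the 9 with fewer in both cKO libraries (4.33% of 49943 annotated genes), and 0 genes had more (6.01% of all genes). Akap4 had 1 and 1 peaks in cKO and 1 and 4 in WT, so that the groups overlapped. Without any 1 of these 4 libraries the number with fewer was 2 to 3 (3 without WT replicate 1), and the number with more was 1 without either cKO library. In cKIT+ cells, 3 genes had more peaks in both cKO libraries (15.7% of all genes) and 0 had fewer (0.861%). These were Odf2 with 9 and 6 in cKO and 2 and 5 in WT, Fsip1 with 12 and 12 in cKO and 3 and 10 in WT, and Ropn1 with 4 and 5 in cKO and 3 and 2 in WT. The lists of cKIT+ cKO cells were also longer than those of WT, and with lists of equal length 0 genes had more. The number with more was 3 without WT replicate 1, the library with the short list, and 5 without cKO replicate 1 or WT replicate 2. The exact p was 0.333 for each of these 4 genes.

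Between sorts, 0 of the 9 genes had more peaks in all 4C-sorted libraries than in all cKIT+ libraries (1.49% of all genes) and 0 had fewer (5.12% of all genes). The nearest was Odf1, with 1 and 2 peaks in cKO and 2 and 2 in WT of 4C-sorted cells, against 0 and 1 in cKO and 0 and 0 in WT of cKIT+ cells (means 1.75 and 0.25, exact permutation p = 0.0571, adjusted p = 0.464). Over all genes this test gave 0 adjusted p of at most 0.05 and 3299 unadjusted p of at most 0.05, with 0.0286 the smallest p that 4 libraries against 4 can give. The smallest adjusted p of any gene in this permutation test was 0.433, so its 0 calls do not show that the sorts were alike. No other tool was run. The number with more was 1 without 4C-sorted cKO replicate 1 or cKIT+ cKO replicate 2, and the number with fewer was 1 without 4C-sorted cKO replicate 1 or cKIT+ WT replicate 1.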

How the data were processed

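The authors deposited UMI counts per gene and barcode for the 2 single-cell samples, made with Cell Ranger, whose version is 7.1.0 for replicate 1 and, for replicate 2, 9.0.1 (per the file headers), on mm10 per the submitters' processing notes, which also name Seurat 4.1.0. For each of the 8 ATAC libraries the authors deposited a list of broad peaks. Each peak has a fold enrichment (a ratio to local background), a -log10 p and q, and a score that follows from the q, all deposited as the authors' MACS2 values. The submitters' processing notes also name cutadapt and Bowtie2, without versions. Read depth and the treatment of duplicates are not given in the sources used here.

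Barcodes passed as cells from 1000 UMIs and 500 genes up, if mitochondrial UMIs made up no more than 10%, and Scrublet (scanpy 1.11.5) removed 685 and 1329 doublets, at an assumed 0.8% per 1000 cells. This left 7413 of 987771 and 12933 of 17744 barcodes. A cell took the class of its highest mean z-score over marker lists, where it led by 0.1 and had UMIs of at least 2 markers. UMIs summed per sample and class were tested with edgeR 4.0.16 (quasi-likelihood, TMM, filterByExpr, sample as a block) under R 4.3.3, with Benjamini-Hochberg adjustment and a threshold of 0.05, and the code was tested on simulated data. DESeq2 1.42.0 was an alternative. The classes of a sample come from 1 suspension, which pairs them; deviations of classes of the same sample correlated with r of 0.08 to 0.40 over 21 pairs. Cells are not replicates, and with 2 samples precision is limited.

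A peak was counted for a gene where it lay within 5 kb of the RefSeq gene (GRCm38.p6, the patched form of mm10; 49943 genes) and for a gene end within 1 kb. Libraries were compared by exact permutation tests. Start windows came from RefSeq.

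The genes and lists were chosen with earlier results of these data known. Named were all 9 genes, the 3 genes most like each, and from each related list the 3 called genes with the largest absolute change, given for spermatids over spermatocytes alone.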

Additional observations from a re-analysis of the deposited data

How the results depend on the processing

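The alternatives were DESeq2, its size factors in edgeR, protamine and transition protein UMIs left out, no expression filter, no replicate block, doublets kept, UMI minimums of 500 and 2000, a stricter margin and Leiden clusters, and for ATAC other windows, a -log10 q of at least 5, lists of equal length and each library left out. With the single-cell tests, genes of the 9 lower in LP-D over P cells numbered 0 with DESeq2, DESeq2 size factors or no replicate block (main value 1), and those lower in IS over RS cells 1 with Leiden clusters (main value 2). Of smaller changes, genes higher in LZ over Sg cells numbered 6, not 5, with no filter, doublets kept, 500 UMIs or the stricter margin; those lower in P over LZ cells 3, not 4, at 2000 UMIs, with the stricter margin and without the block; those higher in RS over LP-D cells 6, not 7, with Leiden clusters and without the block; and those higher in IS over RS cells 5, not 6, with doublets kept and without the block. Without the block, 7 calls of single genes were lost and 4 genes, not 6, were higher in PH over IS cells. Leaving out a single-cell sample gives values with no test. Signs turned for genes that had not passed the test. In LZ over Sg cells these were Akap3 (-0.12 with DESeq2 and with its size factors, -0.090 with doublets kept, -0.40 at 2000 UMIs), Odf1 (-0.094 with DESeq2, -0.090 with its size factors) and Ropn1 (-0.0035 and -0.0032 with DESeq2 and its size factors, -0.025 with doublets kept, -0.089 at 2000 UMIs). Akap4 in LP-D over P cells was -0.017 with the stricter margin, Ropn1l in IS over RS cells was -0.014 with doublets kept, and Ropn1l in PH over IS cells was 0.044 with DESeq2 and its size factors and 0.15 with doublets kept and with Leiden clusters. In ATAC, genes with fewer peaks in 4C-sorted cKO than WT cells numbered 0 at q of 5 or with 10 kb (2 to 3 with a library left out), and those with more numbered 1 with 10 kb (0 to 1). In cKIT+ cells those with more in cKO numbered 0 with lists of equal length (3 to 5 with a library left out). Between sorts, those with more in 4C-sorted cells numbered 1 at q of 5 and with equal lengths (0 to 1 with a library left out), and those with fewer 0 to 1. With 0 set in for no peak, which no library measured, the Ropn1 end fold in 4C-sorted cells gave cKO minus WT values of 3.67 with and without the replicate block, 3.58 to 3.75 with a library left out and 2.14 with a 2 kb reach. Differences in peak counts or folds turned for Akap4 in cKIT+ cells (-0.5 with equal lengths, -0.5 to 1.5 with a library left out), Fsip2 in 4C-sorted cells (-2.5 to 0.5 with a library left out, 0.5 without WT replicate 1), Spa17 (-0.5 to 1.5, -0.5 without cKIT+ WT replicate 1), the count (-0.5 with equal lengths) and end fold, with the same 0, of Ropn1 in cKIT+ cells (-2.10 to 1.85 with a library left out), and Ropn1l between sorts (-0.5 at q of 5, -0.75 with 1 kb, -0.25 with 10 kb, -0.167 without 4C WT replicate 1, -0.25 without cKIT+ WT replicate 1). The causes were not tested. Low UMI totals limit Akap3, Akap4 and Odf1 before round spermatids, and 2 libraries a group limit ATAC.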
